A study of Mus musculus with 2 samples.

Results

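Ion channels are the pores through which neurons pass sodium, potassium, calcium and chloride, and ionotropic receptors are channels opened by a transmitter such as glutamate, GABA, glycine, acetylcholine or ATP. Potassium and leak channels hold the membrane near rest, sodium and calcium channels carry the action potential and calcium entry, and auxiliary subunits set where a pore sits and how fast it opens. In the embryonic cortex most such genes start at a low level, and many rise as progenitors leave the cell cycle and young neurons mature.

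The genes described here were the rows of the deposited table with a single mouse symbol of a channel or ionotropic receptor family and values above 0 on each side. Members were chosen by symbol only. They made up 46 rows and 45 symbols of 2317 rows that met the same conditions for any symbol, and Kcnh8 had 2 rows. The table itself holds only loci that passed the authors' own test between the genotypes, so "listed" means past that test, and a gene with no row is called not listed and never unchanged. NCBI's mouse gene table holds 255 protein-coding symbols of the same pattern, so 210 had no row of their own. Among these, Kcna3 shared a row with another gene.

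Cortex was taken at E14.5, in mid-neurogenesis, from mice of a mixed B6/129 background, with 1 library per genotype. The Trrap-deleted library came from Trrap F/F embryos carrying Nestin-Cre. Nestin-Cre recombines floxed alleles in neural progenitors and their progeny, and Trrap is the scaffold of several histone acetyltransferase complexes. The control library was entered as wild type, but its description gives it as Trrap F/+ with Nestin-Cre, so both libraries carried Cre and at least 1 floxed allele. The labels do not give the number of embryos behind each library. The study asked how histone acetylation through Trrap bears on the cycling and fate choice of neural progenitors. Values are FPKM, fragment counts scaled for transcript length and library size, which can be set side by side between genes. Neither genotype had a replicate, so no value has a standard deviation and none of the differences could be tested here. The depth is unknown. Trrap was not listed, which leaves the labels unchecked by the deleted gene. In bulk tissue, fewer cells of a type and less RNA per cell cannot be told apart.

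Channel genes were mostly listed higher in the Trrap-deleted cortex. Of the 46 rows, 34 were higher (73.9%), against 58.4% of all 2317 rows, and 12 were lower, against 41.6% of all rows. The median log2 fold change of Trrap-deleted over control was 0.91 for the channel rows, against 0.55 for all rows. A difference of at least 2-fold upward was found in 21 channel rows (45.7%), against 25.6% of all rows, and downward in 7 (15.2%), against 13.3%. Channel rows were weaker than the table as a whole, with a median of 4.81 FPKM in the higher library against 17.4 FPKM for all rows, and large differences were more frequent among weak rows. Summed over the 34 higher rows, the level was 353 FPKM in the Trrap-deleted and 203 FPKM in the control library. Summed over the 12 lower rows it was 79.1 FPKM in the Trrap-deleted and 127 FPKM in the control library. Rows were grouped by direction for these sums, so the direction of each sum was fixed beforehand. Over all 46 channel rows the sum was 432 FPKM in the Trrap-deleted and 330 FPKM in the control library. Over all 2317 rows the log2 ratio of the sums was -0.35. The largest increase among channel rows was in Kcnj4 (16.6-fold) and the largest decrease in Kcnh8 (7.35-fold at one row and 9.04-fold at the other). In the authors' deposited table the q-values of the channel rows ran from 3.66e-11 for Ryr2 to 0.0457 for Cacnb3.

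**Figure D1:**
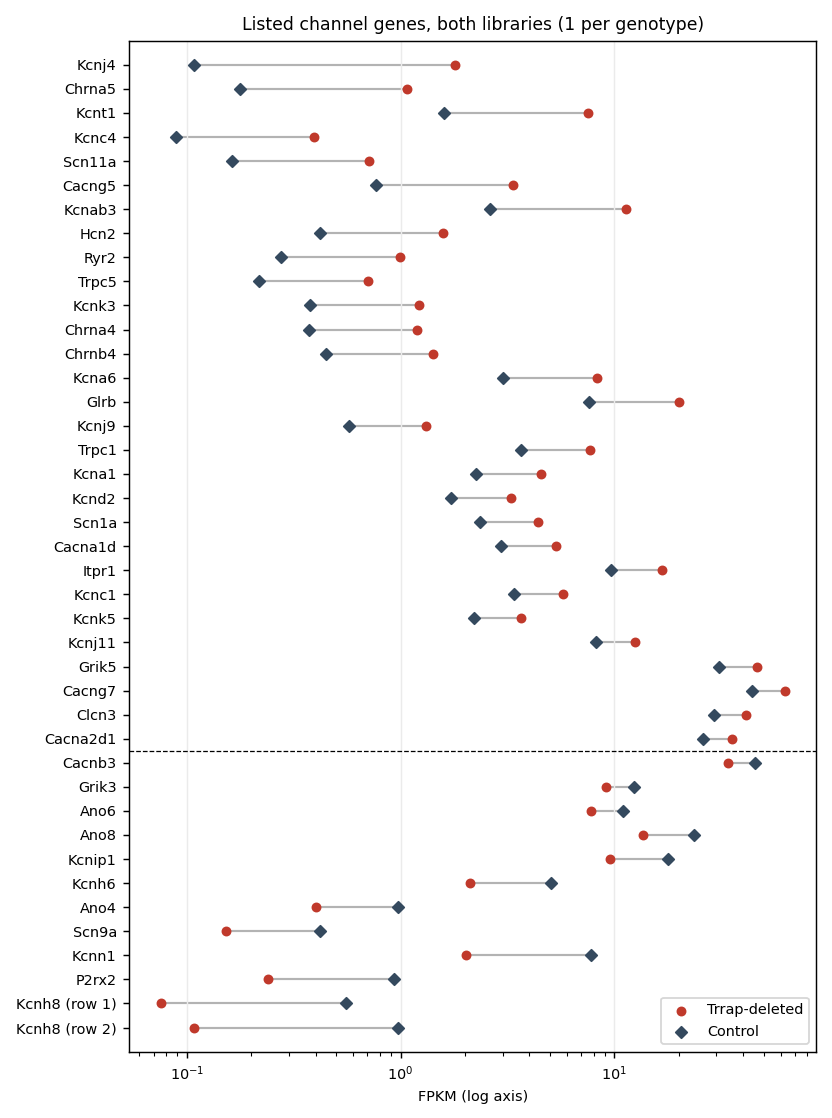
FPKM on a log axis of 41 of the 46 listed channel rows in the Trrap-deleted library (circles) and the control library (diamonds), sorted by fold change. The dashed line separates the 29 rows shown that were higher in the Trrap-deleted library from the 12 lower ones, and the lines are longest for Kcnj4, at 1.79 FPKM in the Trrap-deleted and 0.108 FPKM in the control library, and for Kcnh8.

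Direction in the table depended on level, and the channel rows were set beside rows of like level. Among rows with 1 to under 5 FPKM in the higher library, 13 of 13 channel rows were higher, against 76.6% of all rows in that range. At 5 FPKM or more, 16 of 23 were higher, against 52.3% of all rows. Under 1 FPKM the order was the other way round, with 5 of 10 channel rows higher against 81.8% of all rows. The 2-fold counts followed level as well. At least 2-fold higher were 5 of 10 channel rows (50%) under 1 FPKM, against 78.8% of all rows there, 10 of 13 (76.9%) from 1 to under 5 FPKM, against 60.5%, and 6 of 23 (26.1%) at 5 FPKM or more, against 13.4%. The lower channel rows thus fell into a group of 5 weak rows (Kcnh8 at both rows, P2rx2, Scn9a and Ano4) and a group of 7 at 5 FPKM or more in the higher library (Kcnn1, Kcnh6, Kcnip1, Ano8, Ano6, Grik3 and Cacnb3), with none between.

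**Figure D2:**
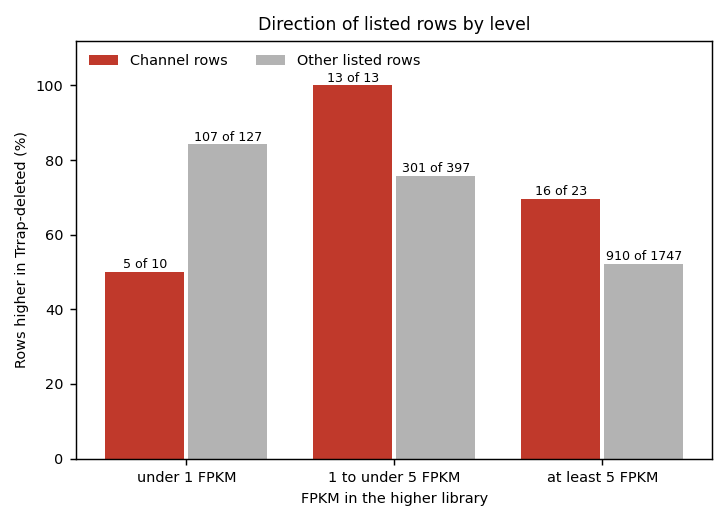
Percentage of listed rows that were higher in the Trrap-deleted library, by the FPKM of the higher library, for channel rows (left bars) and other listed rows (right bars), with counts above the bars. Channel rows were higher in 13 of 13 cases from 1 to under 5 FPKM and in 5 of 10 cases under 1 FPKM.

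**Figure D3:**
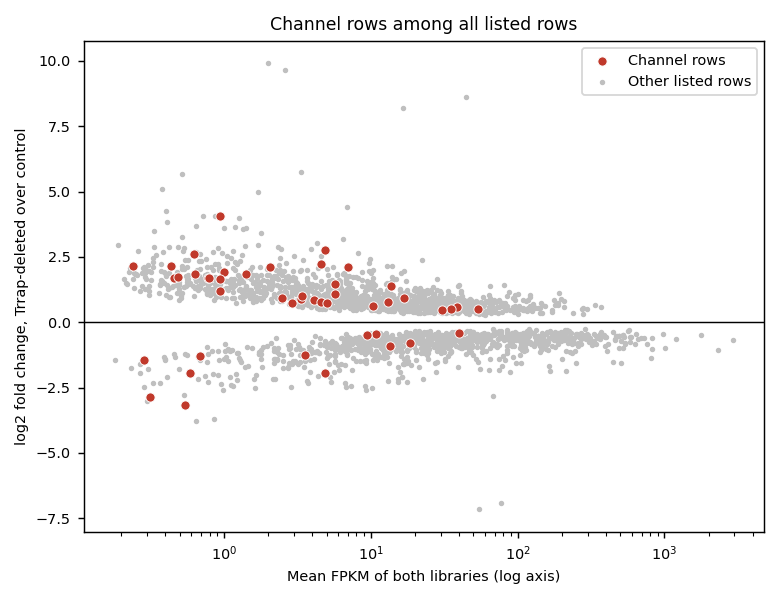
Log2 fold change of Trrap-deleted over control against the mean FPKM of both libraries (log axis) for the 46 channel rows (large points) and the other listed rows (small points). The channel rows reach at most 63.0 FPKM in either library and sit mainly above 0.

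Promoter windows were available in RefSeq's GRCm38.p6 table for 32 of the 45 symbols, covering 250 bases before to 50 after the annotated start. The 5 windows below belong to the 3 largest increases and the 2 largest decreases, among members with at least 1 FPKM in the higher library, that had one. For Chrna5, Cacng5 and Kcnn1, which have 2 windows each, the more upstream one is shown. Capitals mark matches, on either strand, to the motifs searched: the E-box CACGTG, which Myc can bind, the GC box GGGCGG, the CCAAT box CCAAT, the E2F forms TTTCGCGC and TTTGGCGC, the left arm of the REST element TTCAGCACC, and the TATA box TATAAA. Matches were allowed to overlap. Kcnj4 lies on the minus strand at chr15:79505192-79505491, Chrna5 on the plus strand at chr9:54980630-54980929, Cacng5 on the minus strand at chr11:107915006-107915305, Kcnn1 on the minus strand at chr8:70863209-70863508 and Kcnh6 on the plus strand at chr11:106007898-106008197.
Kcnj4: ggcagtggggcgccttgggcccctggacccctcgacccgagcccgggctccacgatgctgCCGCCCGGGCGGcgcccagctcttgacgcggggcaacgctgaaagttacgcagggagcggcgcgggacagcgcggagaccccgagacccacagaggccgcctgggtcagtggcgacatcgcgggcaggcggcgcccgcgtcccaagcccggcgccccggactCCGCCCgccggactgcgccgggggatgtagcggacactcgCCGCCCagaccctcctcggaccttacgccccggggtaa
Chrna5: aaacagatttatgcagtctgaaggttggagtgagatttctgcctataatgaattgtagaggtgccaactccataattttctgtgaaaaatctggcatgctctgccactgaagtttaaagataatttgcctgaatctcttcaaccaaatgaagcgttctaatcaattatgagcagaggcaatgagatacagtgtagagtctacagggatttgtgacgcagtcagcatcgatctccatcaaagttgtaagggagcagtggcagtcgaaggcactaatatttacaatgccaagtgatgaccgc
Cacng5: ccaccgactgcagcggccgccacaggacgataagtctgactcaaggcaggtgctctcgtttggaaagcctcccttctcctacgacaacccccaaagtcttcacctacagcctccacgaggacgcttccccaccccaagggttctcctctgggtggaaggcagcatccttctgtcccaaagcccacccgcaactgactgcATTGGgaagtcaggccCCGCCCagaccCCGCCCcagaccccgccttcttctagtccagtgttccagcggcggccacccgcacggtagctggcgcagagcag
Kcnn1: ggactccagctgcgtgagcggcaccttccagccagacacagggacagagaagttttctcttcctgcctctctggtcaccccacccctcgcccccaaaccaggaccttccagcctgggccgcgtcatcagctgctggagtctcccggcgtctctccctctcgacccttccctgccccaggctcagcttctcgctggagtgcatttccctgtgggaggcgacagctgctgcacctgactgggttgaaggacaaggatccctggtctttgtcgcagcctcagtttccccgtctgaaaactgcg
Kcnh6: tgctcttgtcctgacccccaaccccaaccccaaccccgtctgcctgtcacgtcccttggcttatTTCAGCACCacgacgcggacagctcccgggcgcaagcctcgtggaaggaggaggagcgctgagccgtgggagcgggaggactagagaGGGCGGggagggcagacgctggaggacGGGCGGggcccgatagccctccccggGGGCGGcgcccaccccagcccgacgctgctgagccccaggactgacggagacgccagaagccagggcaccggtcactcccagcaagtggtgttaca
A GC box stood in 15 of the 23 windows of higher members (65.2%), in 6 of the 9 windows of lower members (66.7%) and in 35.9% of all 27025 promoter windows. The median GC content was 63.7% in windows of higher members, 62.3% in those of lower members and 52.7% over all. The E-box was found in 1 of 23 windows of higher members and 0 of 9 of lower members, against 7.24% of all windows. No channel window held either E2F form, which 0.326% and 0.537% of all windows did. The REST arm stood in the Kcnh6 window shown above and in 0.370% of all windows. CCAAT boxes were in 6 of 23 windows of higher members, 2 of 9 of lower members and 38.0% of all windows, and TATA boxes in 2 of 23, 0 of 9 and 14.2%. These are letter matches and not measured binding. The 27025 windows belong to annotated genes whether listed or not, and shares over listed genes alone were not computed.

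Voltage-gated potassium channels of the Shaker, Shaw and Shal groups, which repolarize the action potential, were listed higher in 6 of 6 cases. Each family had at most 9 rows, and its count stands beside the 58.4% of all rows that were higher and the shares by level given above. Kcna6, a Shaker-type delayed rectifier, was at 8.32 FPKM in the Trrap-deleted cortex, against 3.03 FPKM in the control. Kcna1, the low-threshold axonal channel mutated in episodic ataxia, was at 4.55 FPKM in the Trrap-deleted and 2.24 FPKM in the control library. Kcnd2, the pore of the somatodendritic A-type current, was at 3.27 FPKM against 1.73 FPKM in the control. The Shaw-type genes, whose fast currents serve high-frequency firing, followed the same direction. Kcnc1 was at 5.75 FPKM in the Trrap-deleted cortex, against 3.39 FPKM in the control. Kcnc4 was at 0.392 FPKM in the Trrap-deleted and 0.0885 FPKM in the control library, a 4.43-fold difference at a very low level.

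The ether-a-go-go-related potassium channels went the opposite way from these groups. Kcnh6, a member of the ERG group, was at 2.12 FPKM in the Trrap-deleted cortex, against 5.06 FPKM in the control (2.39-fold lower). Kcnh8, an ELK channel, was at 0.0755 and 0.107 FPKM at its 2 rows in the Trrap-deleted library, against 0.555 and 0.971 FPKM in the control. The 2 Kcnh8 rows do not overlap, lie 48231 bases apart on chromosome 17 and are 0.477 and 0.0765 times as long as the annotated gene, so each holds part of the gene at most.

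Channels that hold the resting potential were higher in all 5 listed cases. Kcnj4, a strong inward rectifier of forebrain neurons, was at 1.79 FPKM in the Trrap-deleted cortex and 0.108 FPKM in the control, and its row was 0.667 times as long as the annotated gene. Kcnj9, a subunit of the G-protein-gated inward rectifier, was at 1.32 FPKM against 0.575 FPKM in the control. Kcnj11, the pore of the ATP-sensitive potassium channel, was at 12.5 FPKM in the Trrap-deleted and 8.21 FPKM in the control library. Its row was 1.78 times as long as the annotated gene, which makes its level uncertain. Of the acid- and alkali-sensitive leak channels of the TASK group, Kcnk3 was at 1.22 FPKM in the Trrap-deleted and 0.377 FPKM in the control cortex. Kcnk5 was at 3.65 FPKM against 2.20 FPKM in the control.

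The 2 listed ion-activated potassium channels differed in opposite directions. Kcnt1, which opens on intracellular sodium and is mutated in infantile epilepsy, was at 7.57 FPKM in the Trrap-deleted cortex, against 1.60 FPKM in the control (4.72-fold higher). Kcnn1, the small-conductance calcium-activated channel behind part of the afterhyperpolarization, was at 2.02 FPKM in the Trrap-deleted and 7.76 FPKM in the control library (3.85-fold lower). Its locus overlaps that of A230052G05Rik, at 0.122 FPKM in the Trrap-deleted and 1.60 FPKM in the control library, and reads of the 2 may not have been told apart. The auxiliary subunits were split in the same manner. Kcnab3, a cytoplasmic beta subunit of Shaker channels, was at 11.3 FPKM in the Trrap-deleted and 2.61 FPKM in the control cortex. Kcnip1, a calcium-binding partner of Shal channels known in mouse cortex mainly from interneurons, was at 9.50 FPKM in the Trrap-deleted and 17.8 FPKM in the control library. Of 14 markers of the ventral telencephalon and interneurons, 4 were listed, with Lhx6 at 1.71, Dlx2 at 0.358 and Dlx5 at 0.276 FPKM in the Trrap-deleted library, against 7.06, 1.95 and 1.68 FPKM in the control. The lower markers were thus 3 of the 4 listed, and of all rows 41.6% were lower. The part of these cells in the Kcnip1 difference was not tested.

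**Figure D4:**
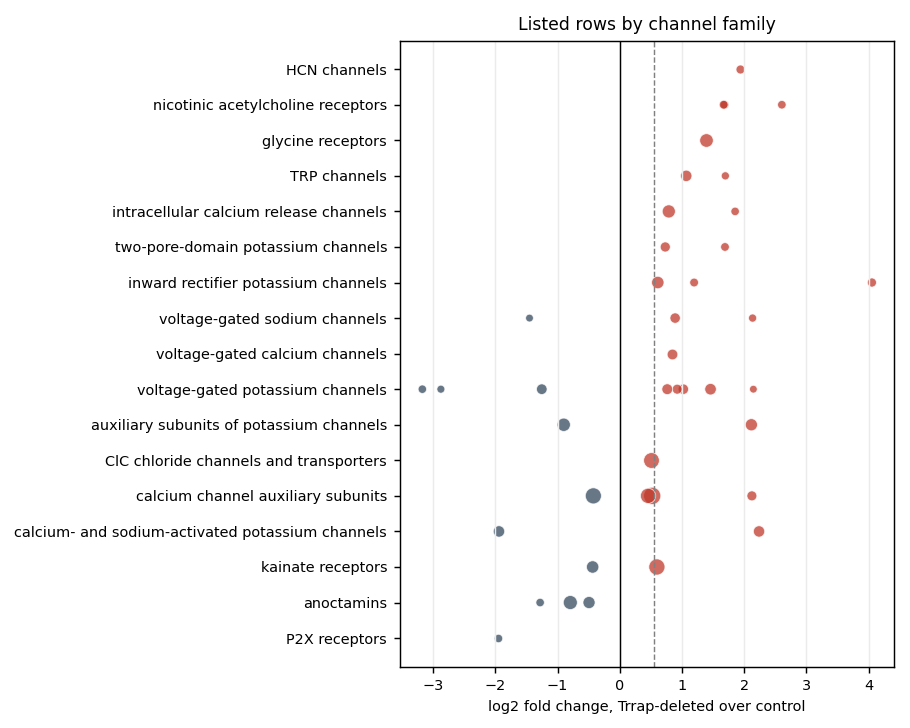
Log2 fold change of Trrap-deleted over control for 41 of the 46 listed channel rows by family, with the point area growing with the FPKM of the higher library. The solid line is 0 and the dashed line is the median of all listed rows, 0.55; only the anoctamin and P2X rows all lie below 0.

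Voltage-gated sodium channels, which carry the upstroke of the action potential, were listed higher in 3 of 4 cases. Scn1a, the forebrain channel mutated in Dravet syndrome, was at 4.37 FPKM against 2.36 FPKM in the control. Scn11a, a channel of sensory neurons, was at 0.714 FPKM in the Trrap-deleted and 0.163 FPKM in the control library. Scn9a, also of sensory neurons, was lower, at 0.153 FPKM in the Trrap-deleted and 0.418 FPKM in the control library.

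HCN channels, the pacemaker channels opened by hyperpolarization, were higher at a low level. Hcn2 was at 1.59 FPKM in the Trrap-deleted and 0.418 FPKM in the control cortex. The difference was 3.80-fold.

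Calcium channel genes were represented by 1 pore and 4 auxiliary subunits. Cacna1d, an L-type pore that opens at fairly negative voltage, was at 5.31 FPKM in the Trrap-deleted cortex, against 2.95 FPKM in the control. Cacng5 and Cacng7 carry a calcium channel name but are known as auxiliary proteins of AMPA-type glutamate receptors. Cacng5 was at 3.35 FPKM in the Trrap-deleted and 0.768 FPKM in the control library. Cacng7, the most abundant of all listed channel rows, was at 63.0 FPKM against 43.9 FPKM in the control. Cacna2d1, the target of gabapentin, was at 35.5 FPKM in the Trrap-deleted and 25.9 FPKM in the control cortex. Cacng7 and Cacna2d1 were higher as deposited, but their log2 fold changes of 0.52 and 0.45 turned to -0.03 and -0.10 after a rescaling that set the median over every listed row to 0. Cacnb3, the cytoplasmic beta subunit that brings the pore to the surface, was lower, at 34.0 FPKM in the Trrap-deleted and 45.7 FPKM in the control library.

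Calcium release and TRP channels were higher in 4 of 4 cases. Itpr1, the inositol trisphosphate receptor of the endoplasmic reticulum, was at 16.7 FPKM in the Trrap-deleted and 9.68 FPKM in the control cortex. Ryr2, the ryanodine receptor of heart and brain, was at 0.996 FPKM against 0.275 FPKM in the control. Trpc1, a receptor-operated cation channel subunit, was at 7.71 FPKM in the Trrap-deleted and 3.68 FPKM in the control library. Trpc5, its X-linked partner in neurons, was at 0.704 FPKM in the Trrap-deleted and 0.217 FPKM in the control library. These 4 differences ran from 1.73-fold for Itpr1 to 3.62-fold for Ryr2.

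Anoctamins, a family of calcium-activated chloride channels and lipid scramblases, were lower in 3 of 3 listed cases. Ano8, a tether between the endoplasmic reticulum and the plasma membrane, was at 13.6 FPKM in the Trrap-deleted and 23.5 FPKM in the control cortex, from a row 1.68 times as long as the annotated gene. Ano6, a scramblase that exposes phosphatidylserine, was at 7.78 FPKM against 10.97 FPKM in the control. Ano4 was at 0.402 FPKM in the Trrap-deleted and 0.977 FPKM in the control library. Clcn3, an endosomal chloride-proton exchanger, was listed higher as deposited, at 41.2 FPKM in the Trrap-deleted and 29.2 FPKM in the control cortex, and its log2 fold change of 0.50 turned to -0.06 under that rescaling.

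Among ligand-gated receptors 6 of 8 listed subunits were higher (75%), against 58.4% of all rows. Of the 8, 4 lay under 5 FPKM in the higher library, where 76.6% (1 FPKM or more) and 81.8% (under 1 FPKM) of all rows were higher, and 4 lay above it, where 52.3% were. Glrb, the beta subunit that anchors glycine receptors to gephyrin, was at 20.02 FPKM in the Trrap-deleted cortex, against 7.64 FPKM in the control (2.62-fold). The other 4 of 5 glycine receptor symbols were not listed. Nicotinic acetylcholine receptor subunits were higher in 3 of 3 cases and from low levels. Chrna5, an accessory subunit, was at 1.08 FPKM in the Trrap-deleted and 0.177 FPKM in the control cortex. Chrna4, of the main high-affinity nicotinic receptor of brain, was at 1.198 FPKM against 0.373 FPKM in the control. Chrnb4 was at 1.42 FPKM in the Trrap-deleted and 0.447 FPKM in the control library.

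Glutamate receptors were represented by 2 kainate receptor subunits that differed in opposite directions. Grik5, a high-affinity subunit that needs a partner to form a channel, was at 46.5 FPKM in the Trrap-deleted and 30.8 FPKM in the control cortex. Grik3, a low-affinity subunit, was at 9.17 FPKM in the Trrap-deleted and 12.4 FPKM in the control cortex. P2rx2, an ATP-gated cation channel, was lower, at 0.241 FPKM in the Trrap-deleted and 0.934 FPKM in the control library. No AMPA, NMDA, delta or acid-sensing channel gene was listed, of 4, 7, 3 and 5 annotated symbols.

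Several listed channel genes are neighbours in the genome (coordinates in mm9, as deposited). Kcna1 (chromosome 6, 126586481 to 126595819) and Kcna6 (126658347 to 126691619) follow each other with no protein-coding gene between them in NCBI's table and were both higher. Chrna5 (chromosome 9, 54828687 to 54855586) and Chrnb4 (54875963 to 54896351) flank Chrna3, which was not listed, and were both higher. Scn1a (chromosome 2, 66108838 to 66278897) and Scn9a (66278937 to 66473009) lie 39 bases apart in the table and differed in opposite directions, with log2 fold changes of 0.89 and -1.45. The Scn9a row was 1.25 times as long as the annotated gene, which leaves the gap between the genes uncertain. Its value was under 1 FPKM in both libraries.

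Of 29 channel subunits known to rise as the cortex matures after birth, 10 were listed and 10 were higher, with log2 fold changes from 0.73 to 1.92. Of all rows 58.4% were higher, and of those from 1 to under 5 FPKM and under 1 FPKM, where 7 of these 10 lie, 76.6% and 81.8% were. Hcn2, Ryr2, Kcnj9, Kcna1, Scn1a, Itpr1 and Kcnc1, given above, were among them, and the median was 1.11. All rows had a median of 0.55, those from 1 to under 5 FPKM one of 1.18 and those under 1 FPKM one of 1.54, so at these levels the list did not stand above the table. Of 21 subunits prominent in embryonic cortex, 3 were listed and 3 were higher, with Chrna4 and Glrb among them and a median of 1.39. Both lists thus had one direction among their listed genes. The sum of the 10 maturation genes was 44.6 FPKM in the Trrap-deleted and 23.6 FPKM in the control library.

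Genes that work with these channels were taken from 4 lists of partners, whose counts stand beside the 58.4% of all rows that were higher. Of 31 partners of voltage-gated channels, 7 were listed and 7 were higher (median log2 fold change 1.03, against 0.55 for all rows). Cntnap2, which clusters Shaker channels along axons, was at 86.2 FPKM in the Trrap-deleted and 42.3 FPKM in the control cortex. Fgf11, an intracellular FGF homologue that binds sodium channels, was at 21.5 FPKM against 11.1 FPKM in the control. The pore and 2 further subunits of the sodium leak channel complex were listed, and these 3 were higher. Its scaffold Unc79 was at 12.8 FPKM in the Trrap-deleted and 8.56 FPKM in the control library. Its other scaffold, Unc80, was at 3.003 FPKM in the Trrap-deleted cortex, against 0.392 FPKM in the control (7.65-fold). The pore gene Nalcn was at 1.80 FPKM against 0.910 FPKM in the control. Stac and Lgi3 were the remaining listed members, with 4.33-fold and 4.23-fold increases. Unc80, Stac and Nalcn lay from 1 to under 5 FPKM in the higher library, where 76.6% of all rows were higher, with a median of 1.18. Lgi3 lay under 1 FPKM, where 81.8% were higher, with a median of 1.54.

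Of 27 genes of store-operated calcium entry and calcium handling, 7 were listed and 7 were higher (median log2 fold change 0.95, against 0.55 for all rows). Atp2b3 and Slc8a3 lay from 1 to under 5 FPKM in the higher library, where 76.6% of all rows were higher. The others lay at 5 FPKM or more, where 52.3% were. Stim1, the calcium sensor of the endoplasmic reticulum, was at 10.6 FPKM in the Trrap-deleted and 5.08 FPKM in the control cortex. Orai2, a store-operated channel that Stim1 opens, was at 13.8 FPKM against 7.15 FPKM in the control. Plasma membrane calcium pumps and sodium-calcium exchangers made up the rest. The pump Atp2b1 was at 29.7 FPKM in the Trrap-deleted and 18.5 FPKM in the control library, and Atp2b2 at 23.9 FPKM against 10.7 FPKM. The exchanger Slc8a2 was at 25.02 FPKM in the Trrap-deleted and 12.1 FPKM in the control library, and Atp2b3 and Slc8a3 were 1.91-fold and 1.82-fold higher.

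The genes that set ion gradients were higher in 3 of 4 listed cases of 12, a count too small to set apart from the 58.4% of all rows. Slc12a5, the chloride extruder KCC2 that makes GABA inhibitory in mature neurons, was at 14.1 FPKM in the Trrap-deleted cortex, against 2.23 FPKM in the control (6.30-fold). The sodium pump beta subunit Atp1b2 was at 31.98 FPKM in the Trrap-deleted and 14.8 FPKM in the control library. Slc12a7, another potassium-chloride cotransporter, was lower, at 6.18 FPKM in the Trrap-deleted and 13.2 FPKM in the control cortex.

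Of 33 partners of glutamate and GABA-A receptors, 5 were listed, 3 higher and 2 lower, which is near the share over all rows. Dlg4, the postsynaptic scaffold PSD-95, was at 237 FPKM in the Trrap-deleted and 141 FPKM in the control cortex. Lhfpl4, which clusters GABA-A receptors, was at 29.9 FPKM against 18.9 FPKM in the control. The AMPA receptor partner Shisa9 was higher at 3.52 FPKM in the Trrap-deleted and 1.03 FPKM in the control library. Homer3, a scaffold of group I metabotropic receptors, was at 13.6 FPKM in the Trrap-deleted and 35.7 FPKM in the control cortex. Neto2, an auxiliary protein of kainate receptors, was at 13.2 FPKM in the Trrap-deleted and 19.7 FPKM in the control library. None of 15 metabotropic glutamate, GABA and muscarinic receptor genes was listed.

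**Figure D5:**
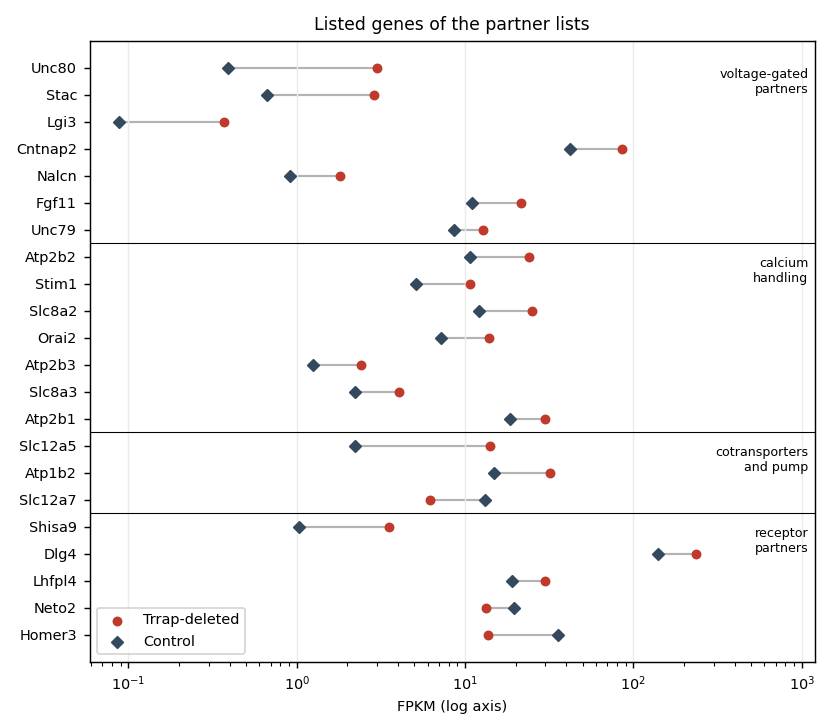
FPKM on a log axis of listed genes of 4 lists of channel partners in the Trrap-deleted library (circles) and the control library (diamonds). All 7 partners of voltage-gated channels and all 7 calcium-handling genes were higher in the Trrap-deleted library, while Slc12a7, Neto2 and Homer3 were lower.

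Markers of other cells differed between the same 2 libraries. All 8 listed microglial markers of 14 were higher, with a summed level of 28.1 FPKM in the Trrap-deleted and 10.8 FPKM in the control library. All 5 listed meningeal markers of 10 were higher, with sums of 15.4 FPKM in the Trrap-deleted and 2.66 FPKM in the control library. Both listed endothelial and pericyte markers of 11 were higher, at sums of 4.24 FPKM in the Trrap-deleted and 2.07 FPKM in the control library. Of all rows 58.4% were higher and 41.6% lower. Most markers of these 3 lists lay from 1 to under 5 FPKM in the higher library, where 76.6% of all rows were higher. C1qb, Tyrobp and Dcn lay at 5 FPKM or more, where 52.3% were, and Cspg4 under 1 FPKM, where 81.8% were. Of 10 glial markers Aldh1l1 was higher and Olig2 lower, and 1 of 5 choroid plexus and 1 of 7 erythroid markers were listed, both higher. Cortical markers were present and lower: 4 of 12 neuronal markers were listed, at sums of 384 FPKM in the Trrap-deleted and 563 FPKM in the control library, and 2 of 12 progenitor markers, at sums of 395 FPKM in the Trrap-deleted and 657 FPKM in the control library. No listed marker was at 0 in either library. Sex-linked transcripts were unequal too, with 3 Y-linked genes higher and Xist lower in the Trrap-deleted library. The part of these differences in the channel values was not tested, and with 1 library per genotype they cannot be told apart from genotype.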

How the data were processed

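RNA was sequenced from 2 cortex samples, 1 per genotype. Per the submitters' processing notes, TopHat2 and genome build mm9 were used. Software for counting and testing, and the use of strand, is not given in the sources here. The deposited table has Cuffdiff's layout, and its value columns were read as FPKM as deposited by the authors (the file itself names no unit). Each p-value and q-value was deposited by the authors. All 2381 rows were marked significant, with q up to 0.0500. The 59 rows with several symbols and 5 single-symbol rows at 0 in a library were left out.

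Log2 of Trrap-deleted over control FPKM was computed with Python 3.11.15 and pandas 2.3.3, with no pseudocount. No test was possible, so counts and medians are set beside those of all rows. The calculation was tested on simulated data. Starts were moved to 1-based counting. Of 2053 rows matched by symbol, 171 had exactly the length of the RefSeq gene on that reading. RefSeq and GRCm38.p6 served for names, lengths, gene order and promoters.

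Values were to be given for the 12 largest increases and the 8 largest decreases at 1 FPKM or more (7 rows qualified), the most abundant member of each family and partner genes at 5 FPKM or more. Values of other rows were added after they had been seen. Some rows are counted in the totals and are not reported here by name. The members and lists were chosen with earlier results of these data known.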

Additional observations from a re-analysis of the deposited data

Results flagged for a closer look

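One row shared by AI504432 and Kcna3, a Shaker-type potassium channel, was left out of the counts above because it names 2 genes (chromosome 3, 106839046 to 106857295 in mm9). It was at 18.6 FPKM in the Trrap-deleted library, against 8.97 FPKM in the control, a log2 fold change of 1.06. It is listed here because it is a signal in a row that no comparison used and it was higher than in the control. The share of each gene in the row is unknown.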

How the results depend on the processing

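The count of 34 higher channel rows moved beyond 1.5 times only at 5 FPKM or more in the higher library, to 16. The 12 lower rows became 7 at 1 FPKM or more, 7 at 5 FPKM or more and 6 at a q-value under 0.01. The median log2 fold change of 0.91 stayed at that value at 1 FPKM or more. It was 0.61 at 5 FPKM or more, 1.13 at a q-value under 0.01, 0.35 after rescaling to a median of 0 over all rows, 1.25 after rescaling by summed FPKM, 0.92 with 1 row per symbol, 0.92 with pore-forming subunits only, 0.89 without the sex chromosomes and 0.59 on the log2(FPKM + 1) scale. Without the 6 rows whose locus overlaps another row or differs in length from the annotated gene, a setting chosen after seeing the data, it was 0.97. The median over all rows, 0.55 as deposited, moved as well. That median was 0.40 at 5 FPKM or more, 0.61 at a q-value under 0.01 and 0.90 after rescaling by summed FPKM. On the log2(FPKM + 1) scale it was 0.47, close to the 0.59 of the channel rows. The 7 rows at least 2-fold lower became 2 at 1 FPKM or more and 4 without those 6 rows. Families with more rows lower than higher numbered 2, and 4 after the rescaling to a median of 0, which takes 0.55 off every log2 fold change. Under it 31 channel rows (67.4%) were higher, against 49.98% of all rows, and 3 genes turned negative: Cacna2d1 to -0.10, Cacng7 to -0.031 and Clcn3 to -0.055. The cause of these moves beyond the rows removed or the shift applied was not tested. No paired analysis was possible because each genotype had 1 library. The depth of the libraries is unknown, so weak rows have no counting interval.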
